A study of Canis lupus familiaris with 6 samples.

Results

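Wnt ligands, their receptors, their secreted antagonists and the proteins that set how much receptor or β-catenin a cell keeps were measured in RasV12-expressing epithelial cells cultured alone or surrounded by normal cells. The members were the probes of a canine array named for a WNT or FZD gene or for 1 of 23 listed genes of the pathway, WNT5A among them, and 60 of the 43603 probes carried such a name. These 60 probes stand for 41 genes, 14 of them WNT and 9 of them FZD genes. Of the 23 listed genes 19 had a probe under that name, and AXIN2, LRP5, PORCN and RYK had none.

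The cells were MDCK-pTR GFP-RasV12 cells, a line of Madin-Darby canine kidney (MDCK) epithelial cells in which tetracycline switches on oncogenic Ras fused to GFP. The culture-alone group held 3 samples of these cells, and the mixed group held 3 samples of the same cells grown together with normal MDCK cells. In both groups GFP-positive cells were sorted on a flow cytometer after 24 h of tetracycline. The RNA of the mixed group was thus meant to come from RasV12 cells, and the purity of the sort is not given. The study's methods give 10 normal cells to 1 RasV12 cell, and the label of mixed replicate 2 gives 100 to 1. The labels disagree on 1 point, since their extraction protocol mentions a β-catenin mutant that the sample titles and the study's methods do not give to these cells, and the titles are followed here. The cells are 1 cultured line with an introduced oncogene. Nothing in the labels says that the samples came from separate cultures, so p-values measure the spread between these samples, which may be technical.

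Wnt proteins are secreted lipid-modified ligands. The acyltransferase PORCN adds the lipid, and the carrier WLS takes the ligand to the cell surface. They bind Frizzled (FZD) receptors together with the co-receptors LRP5 and LRP6, which blocks the complex of APC, AXIN and GSK3 that otherwise destroys β-catenin, or they act through ROR1, ROR2 and RYK on cell polarity and calcium. SFRP proteins, FRZB and WIF1 bind the ligands, and DKK1 and DKK2 bind the co-receptors. The ubiquitin ligases RNF43 and ZNRF3 remove Frizzled from the surface unless R-spondins engage LGR4 or LGR5. In the kidney WNT7B is made by the epithelium of the collecting duct, and WNT5A is best known as a ligand of the polarity branch.

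The sequences of 4 probes are shown because the differences described here rest on them. The WNT5A probes A_11_P0000028776 and A_11_P000004330 lie on the plus strand of canFam3 chromosome 20, at chr20:34786296-34786355 and chr20:34790375-34790434, so their starts are 4079 bases apart. WNT7A was read by A_11_P074931 (chr20:4073996-4074055, minus strand) and WNT7B by A_11_P089061 (chr10:20208134-20208193, plus strand). Each probe holds 60 bases, and 30 are printed for the downstream WNT5A probe. Capitals mark the 17 bases that the WNT7A and WNT7B probes share.
WNT5A upstream probe: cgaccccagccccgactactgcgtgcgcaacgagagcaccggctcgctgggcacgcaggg
WNT5A downstream probe: aagcatatatataatgcaaatatgcaccaa
WNT7A probe: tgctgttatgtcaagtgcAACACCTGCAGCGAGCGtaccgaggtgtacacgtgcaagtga
WNT7B probe: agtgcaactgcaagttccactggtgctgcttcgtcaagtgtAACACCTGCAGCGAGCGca
The WNT7A and WNT7B probes are alike at 32 of the 37 positions where their sequences align without gaps, and whether either transcript binds the other probe was not tested. Among 1770 pairs of member probes only this pair and the pair of FRZB probes, which overlap by 53 bases, shared a run of more than 16 bases. The upstream WNT5A probe has 73.3% G and C, and the downstream probe 35.0%.

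A probe was called well above background by the scanner software when its signal cleared the local background by a margin. Of the 60 member probes, 35 (23 genes) were well above background on all 6 arrays, 11 on 1 to 5 arrays and 14 on none. On single arrays 36, 39 and 44 member probes of 60 passed in the culture-alone samples, and 35, 40 and 35 in the mixed samples, while 60.8% to 66.4% of all probes did. The groups overlapped in this count.

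**Figure D1:**
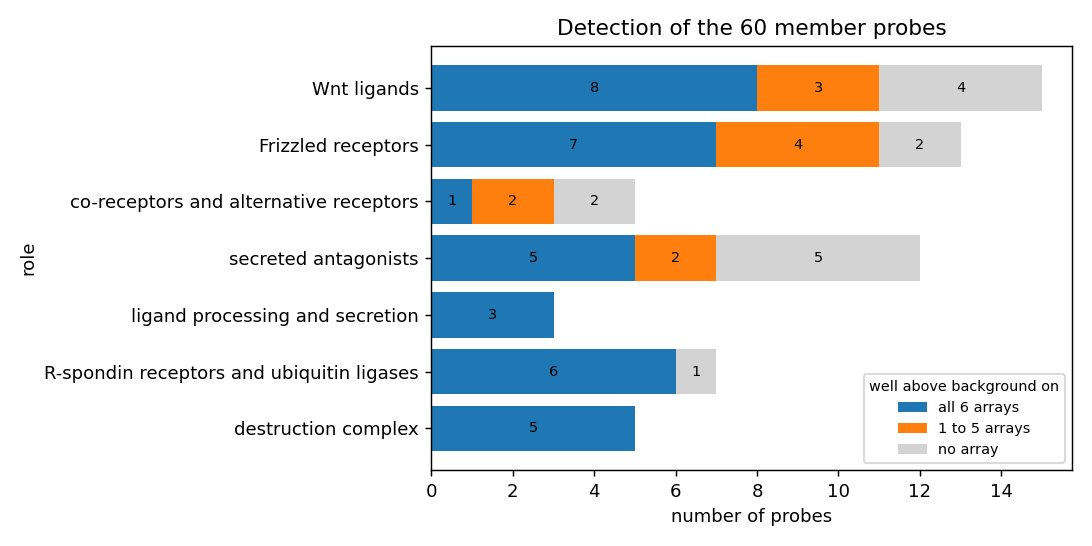
Number of member probes by role (vertical axis), split by how many arrays read the probe well above background (all 6, 1 to 5 or none). All 3 WLS probes and all 5 APC and AXIN1 probes were well above background on all 6 arrays, against 5 of 12 probes for the secreted antagonists.

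Among the ligands, the probes for WNT6, WNT8B, WNT9B and WNT11 were well above background on no array, and those for WNT2, WNT4 and WNT10B on 2 or 3. Among the receptors, the probe for FZD4 and that for ROR1 were well above background on no array, FZD10 on 1, and the 3 ROR2 probes on 0, 1 and 2. The FZD3 probes were well above background on 0 and 1 arrays. The antagonist probes for DKK2, SFRP1, SFRP2 and WIF1 were well above background on no array, and DKK1, itself a β-catenin target, on 2. LGR5, an R-spondin receptor and a target of the pathway, was well above background on none. No comparison was made for the 25 probes that were not tested.

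The 35 probes that were measured on all arrays were compared between mixed culture and culture alone. Values are log2 intensities relative to the 75th percentile of the same array, and a difference is mixed minus alone. With limma's moderated test (two-sided) and Benjamini-Hochberg adjustment over the 26535 probes tested, 3 of the 35 were called at an adjusted p under 0.05, all 3 lower in mixed culture. That is 8.57% of the tested members, and 11.2% of all tested probes were called, 5.72% lower and 5.5% higher. Each culture condition had a slide to itself, and the effect of slide cannot be told apart from that of mixing for any difference given here. RNA of many cells was read together, so fewer cells making a transcript and less transcript per cell cannot be told apart either.

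**Figure D2:**
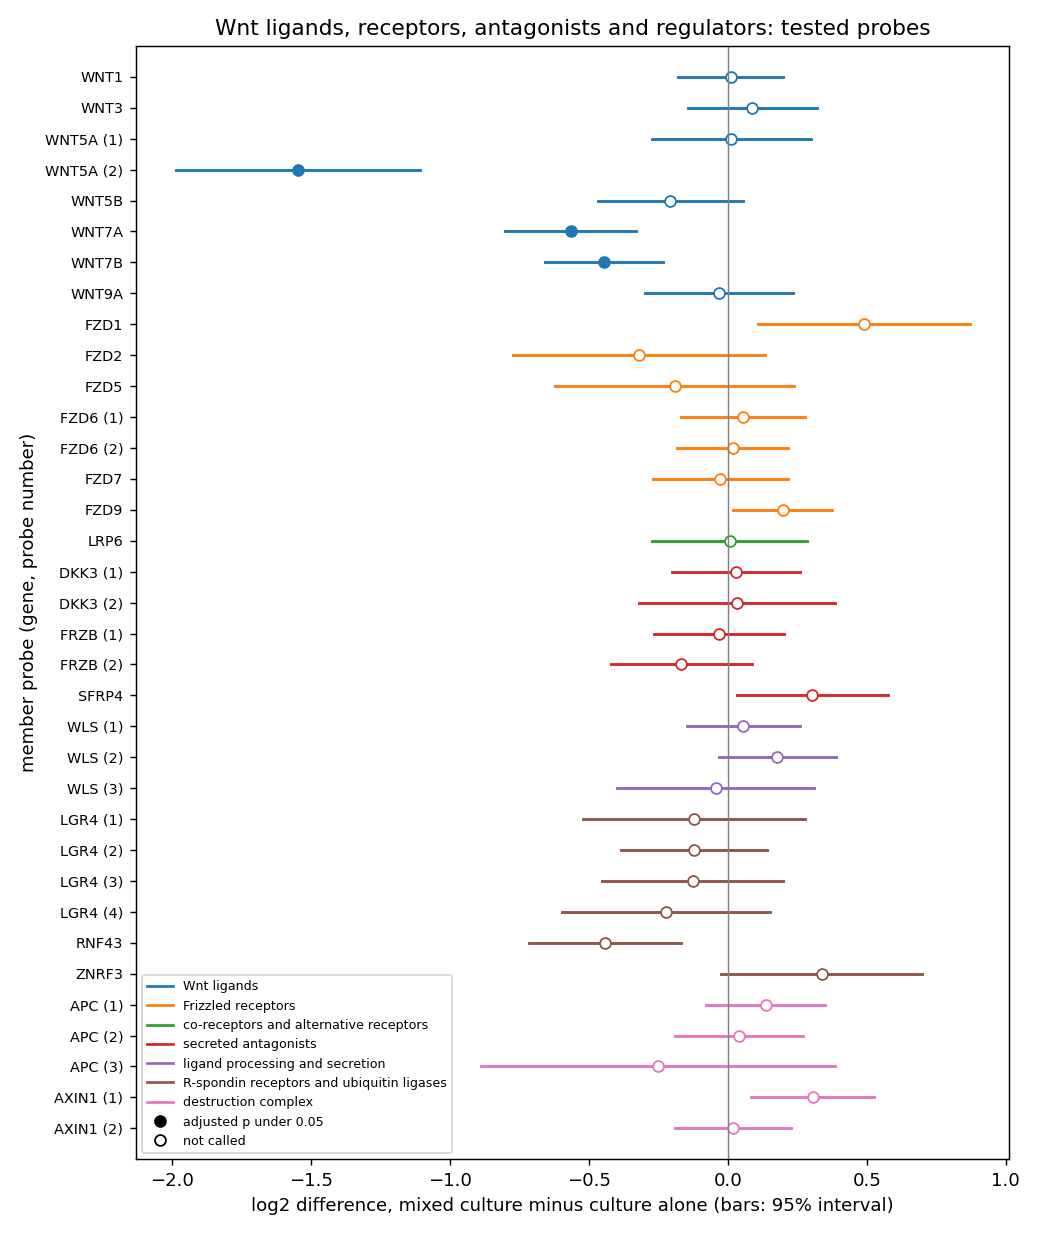
Log2 difference, mixed minus alone (horizontal axis), of the 35 tested member probes, with 95% intervals from limma, coloured by role. Filled points have an adjusted p under 0.05 over all tested probes. WNT5A (2), the downstream WNT5A probe, lies at -1.55, and WNT7A and WNT7B lie at -0.57 and -0.45. The intervals of FZD1, FZD9, SFRP4, RNF43 and AXIN1 (1) also exclude 0, without a call after adjustment.

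The 3 called probes were all ligands. WNT5A read by the downstream probe fell by 1.55 on the log2 scale, WNT7A by 0.57 and WNT7B by 0.45. At 2-fold or more only the WNT5A probe remained, against 1.13% of all tested probes. No receptor, antagonist, secretion factor, ligase or destruction complex probe was called.

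At the downstream WNT5A probe the culture-alone samples read -1.47, -0.82 and -0.81 and the mixed samples -2.66, -2.57 and -2.52. The groups did not overlap, and replicate 1 of culture alone stood below the other two of its group. The difference was -1.55 (SE 0.18, 95% interval -1.99 to -1.11, adjusted p = 0.014 by limma), a signal 2.92-fold higher in culture alone. At the upstream WNT5A probe the culture-alone samples read 5.16, 5.01 and 4.75 and the mixed samples 4.88, 5.05 and 5.01. Here the groups overlapped, and the difference was 0.01 (SE 0.12, adjusted p = 0.959 by limma).

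Both WNT5A probes were measured on every array, so their difference within an array is unchanged when all log2 values of that array are shifted together. The upstream value minus the downstream value was 6.63, 5.83 and 5.55 in culture alone and 7.53, 7.63 and 7.53 in mixed culture. The groups did not overlap, and they differed by 1.56. An exact two-sided permutation test gave p = 0.1, the smallest that 3 samples against 3 allow. This value restates the 2 differences above and is no further test of them. The array's annotation assigns the upstream and downstream probes to different transcript records. Whether both read the same transcript, and which of them follows the whole transcript, was not tested.

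WNT7A, a ligand of several Frizzled receptors, read 1.08, 0.95 and 0.83 in culture alone and 0.51, 0.28 and 0.38 in mixed culture. Every mixed sample was below every culture-alone sample, and the difference was -0.57 (SE 0.098, 95% interval -0.80 to -0.33, adjusted p = 0.024 by limma). WNT7B read 0.27, 0.39 and 0.30 in culture alone and 0.01, -0.21 and -0.19 in mixed culture. Again the groups did not overlap, and the difference was -0.45 (SE 0.089, 95% interval -0.66 to -0.23, adjusted p = 0.031 by limma). With the replicate number as a block the WNT7B call was lost (adjusted p = 0.0526), and with scaling to the spike-in controls it was 0.0579.

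**Figure D3:**
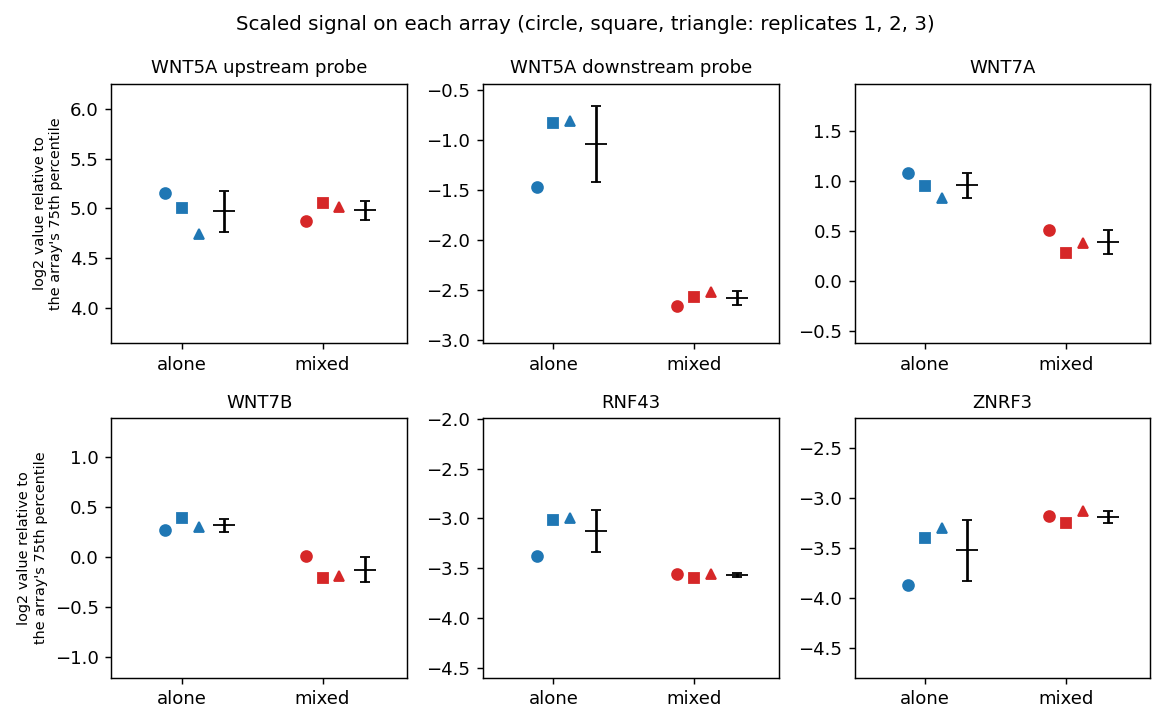
Log2 value relative to the array's 75th percentile (vertical axes, each spanning the same number of units) on the 3 culture-alone and 3 mixed arrays for 6 member probes. Symbols are replicates, and bars give the mean and SD of the 3 arrays. The downstream WNT5A probe, WNT7A, WNT7B and RNF43 are lower on all 3 mixed arrays, ZNRF3 is higher on all 3, and the upstream WNT5A probe overlaps.

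The calls of these ligands depended on single arrays. Without alone replicate 2, alone replicate 3, mixed replicate 2 or mixed replicate 3 none of the 3 was called, with adjusted p between 0.068 and 0.075 for WNT5A, 0.083 and 0.103 for WNT7A and 0.108 and 0.123 for WNT7B. Without alone replicate 1 or mixed replicate 1 all 3 were called. The differences kept their sign in all 15 alternatives. Over all probes the count of calls moved with the same arrays, from 7 without alone replicate 3 and 9 without mixed replicate 2 to 7335 without alone replicate 1.

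**Figure D4:**
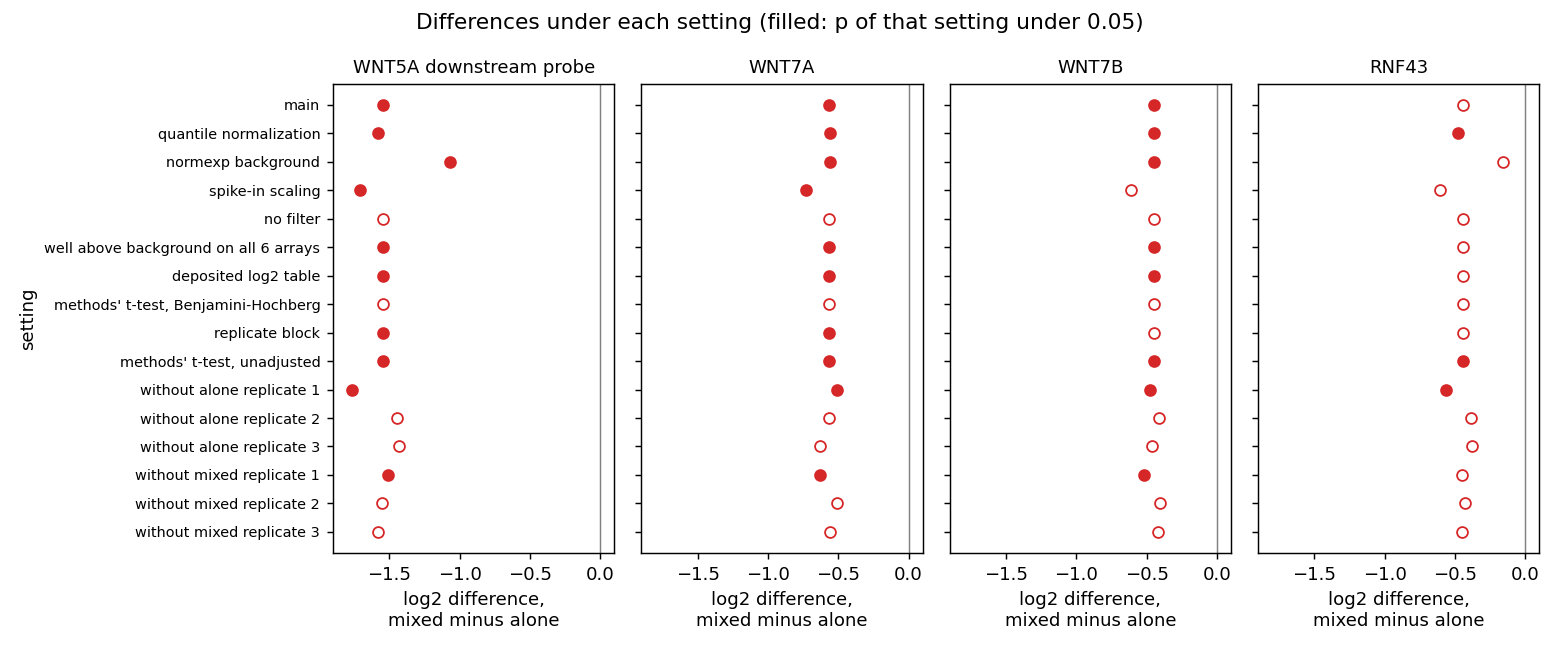
Log2 difference, mixed minus alone (horizontal axes), of the downstream WNT5A probe, WNT7A, WNT7B and RNF43 under each setting (vertical axis). Filled points have a p under 0.05 in that setting, adjusted over all tested probes except for the unadjusted t-test. All points lie below 0, and the points for omission of alone replicates 2 and 3 and of mixed replicates 2 and 3 are open.

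The other ligands showed smaller differences, none of them called. WNT1, WNT3, WNT5B and WNT9A differed by 0.01, 0.09, -0.21 and -0.03. The 8 ligand probes had a median difference of -0.12, against 0.00 over all tested probes. Groups did not overlap for 3 of the 8 (37.5%), all of them the called probes, a share close to the 37.2% of all tested probes.

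No Frizzled probe was called, and the 7 tested had a median difference of 0.02. FZD1 read -3.85, -4.24 and -4.49 in culture alone and -3.69, -3.75 and -3.68 in mixed culture. Every mixed sample was higher, but the spread in culture alone was wide, and the difference of 0.49 (SE 0.16, adjusted p = 0.093 by limma) was not called. FZD9 was also higher in every mixed sample, with a difference of 0.20 (adjusted p = 0.129 by limma). FZD2 read 3.78, 3.52 and 3.52 in culture alone and 3.71, 3.07 and 3.07 in mixed culture, so mixed replicate 1 stood with the culture-alone samples. FZD5 gave the same picture at a difference of -0.19, and the FZD6 probes and the tested FZD7 probe differed by -0.03 to 0.05. The other FZD7 probes were well above background on only 1 and 2 arrays and were not tested. LRP6, the measured co-receptor, read -3.11, -2.75 and -2.91 in culture alone and -2.79, -3.06 and -2.90 in mixed culture, a difference of 0.01 (adjusted p = 0.978 by limma).

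No antagonist probe was called. SFRP4, a secreted Frizzled-related protein, was higher in every mixed sample by 0.30 at 1 probe (SE 0.11, adjusted p = 0.126 by limma). Another SFRP4 probe was well above background on no array, and a probe that carries the name only in its descriptive text differed by -0.21 with overlapping groups. The overlapping FRZB probes differed by -0.03 and -0.17, and the 2 measured DKK3 probes by 0.03 each. The ligand carrier WLS was read by 3 probes. Their differences were 0.06, 0.18 and -0.04, and none was called. The probe with the difference of 0.18 read 3.30, 3.10 and 3.12 in culture alone and 3.30, 3.45 and 3.30 in mixed culture.

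The receptor-clearing ligases RNF43 and ZNRF3 had fitted differences of opposite sign, and neither was called. RNF43 read -3.37, -3.01 and -3.00 in culture alone and -3.56, -3.59 and -3.56 in mixed culture. Every mixed sample was lower, and the difference was -0.44 (SE 0.11, 95% interval -0.72 to -0.17, adjusted p = 0.055 by limma). A stronger RNF43 probe, named only in its descriptive text, had means of 2.74 in culture alone and 2.35 in mixed culture. Its groups overlapped at a difference of -0.38 (adjusted p = 0.193 by limma). ZNRF3 read -3.87, -3.40 and -3.30 in culture alone and -3.18, -3.25 and -3.13 in mixed culture, a difference of 0.34 (SE 0.15, adjusted p = 0.185 by limma). In both genes alone replicate 1 stood apart from alone replicates 2 and 3. Without alone replicate 1, the first RNF43 probe was called (-0.57, adjusted p = 0.0057 by limma) and ZNRF3 differed by 0.16. That omission called 26.4% of all tested probes and 9 of 38 tested member probes, so the call was not particular to RNF43. Probes for FZD1 (0.66), AXIN1 (0.38) and LGR4 (-0.39) were also called there. The receptor LGR4 was read by 4 probes, with differences from -0.22 to -0.12 and no call when all arrays were kept. At each of the 4 alone replicate 1 was the lowest of its group.

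AXIN1 and APC form the scaffold of the destruction complex. One AXIN1 probe read -1.35, -1.52 and -1.62 in culture alone and -1.13, -1.20 and -1.24 in mixed culture, higher in every mixed sample by 0.30 (SE 0.092, adjusted p = 0.080 by limma). The other AXIN1 probe differed by 0.02. The 3 APC probes differed by 0.14, 0.04 and -0.25, and the last of them read 3.35, 4.37 and 3.71 in culture alone and 3.27, 3.73 and 3.68 in mixed culture, the widest spread of the tested members.

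Over the 35 tested probes the median difference was 0.01, with 17 fitted differences below 0 and 18 above. Groups did not overlap for 10 probes (28.6%), 4 of them lower and 6 higher in mixed culture, whereas 37.2% of all tested probes did not overlap. With each gene read by its strongest probe, 2 of 23 genes were called, WNT7A and WNT7B, since WNT5A is then read by its upstream probe. With the replicate block 1 was called. Of the names on the array 10.9% were called on that basis, 5.62% higher and 5.29% lower.

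Other genes of the pathway were compared in lists at 1 probe per gene, against the same 10.9%. Of 14 tested genes in the list of other secreted and surface proteins, 1 was called. It was NXN, a regulator of Dishevelled that is itself neither secreted nor on the surface. NXN fell by 0.31 (adjusted p = 0.046 by limma, 0.071 with the block). GPC3, a glypican of the cell surface, differed by -1.07 and was called with the block only (adjusted p = 0.031, against 0.063 by limma without it). Of 31 tested intracellular genes, 3 were called. PPP2R5A, a subunit of the phosphatase PP2A, rose by 0.80, CREBBP, a coactivator, rose by 0.65, and GSK3B, the kinase that marks β-catenin, fell by 0.33 (adjusted p = 0.013, 0.042 and 0.035 by limma; 0.053 for GSK3B with the block). CSNK1E, a casein kinase, differed by -0.37 and was called with the block only (adjusted p = 0.046). Of 28 tested genes of the polarity and calcium branches, 2 were called. INVS, which acts on Dishevelled, rose by 0.42 and PRICKLE3, a core polarity gene family member, fell by 0.47 (adjusted p = 0.027 for each by limma, 0.051 for PRICKLE3 with the block).

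Of 26 tested target genes of β-catenin, 5 were called, all lower (19.2%). BMP4, a secreted growth factor, fell by 0.92 and CD44, a hyaluronan receptor, by 0.78. PLAUR, the urokinase receptor, fell by 0.68, CCND1, which encodes cyclin D1, by 0.59, and FOSL1, an AP-1 subunit, by 0.52. Their adjusted p lay between 0.013 and 0.037 by limma, and with the replicate block CCND1 was at 0.063. The block also called 3 targets with a higher value in mixed culture, CLDN1, a tight junction protein (0.80), ETS2 (0.50) and FGF9 (0.40), which gave 3 higher and 4 lower, so the single direction of the calls held only without the block. The target MYC differed by -0.09 and SOX9 by -0.01, and neither was called. NOTUM, a secreted enzyme that inactivates Wnt ligands, differed by -0.34 and was not called. LEF1, LGR5 and NKD1 were well above background on no array.

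The genes PLAUR, FOSL1 and CCND1 also stand in a list of genes that respond to Ras and the MAPK cascade, so those 3 targets are shared. Of 17 tested genes of that list, 6 (35.3%) were called, 5 lower and 1 higher, with a median difference of -0.49. EREG and EPHA2 fell by 0.72 and 0.71, and EGR1, an immediate early gene, rose by 0.77. The summed level of the list lay between 137 and 141 in culture alone and between 115 and 131 in mixed culture, so the groups did not overlap. The sum adds unlogged values, so the strongest genes weigh most. The strongest was DUSP6 (mean 6.49 alone and 6.30 mixed), which differed by -0.19 and was not called. The summed level of the intracellular Wnt list also did not overlap, at 209 to 220 in culture alone and 190 to 200 in mixed culture. The sums of the secreted and surface, polarity and calcium, and target lists overlapped. Of all single tested probes 37.2% did not overlap between the groups. The part of the Ras and MAPK list in the ligand differences was not tested. That list was also chosen to mark RasV12 cells against normal MDCK cells. Carry-over of normal cells into the sorted samples was not tested. In none of the 5 lists was a gene called without alone replicate 2, alone replicate 3, mixed replicate 2 or mixed replicate 3.

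The sorted cells were checked against cell type markers. Normal MDCK cells are of the same kidney epithelial line, so these markers cannot tell them from the RasV12 cells. Of 15 kidney epithelial markers on the array, 14 were well above background on all 6 arrays and none was called (CLDN4, with a difference of 0.72, was called with the block only). Of 10 fibroblast markers, 6 were well above background on all 6 arrays (COL1A1, COL1A2, LUM, THY1, FAP and PDGFRB), DCN was on 1, and COL3A1, PDGFRA and POSTN were on none. The summed fibroblast level ran from 1.90 to 2.10 in culture alone and from 2.25 to 2.48 in mixed culture, so every mixed sample was higher, although no marker of the list was called. The strongest genes in this sum of unlogged values were COL1A2 (difference 0.19) and THY1 (0.32). COL1A1 alone among the tested fibroblast markers had a negative difference (-0.13). The summed epithelial level ran from 709 to 871 in culture alone and from 753 to 879 in mixed culture. Of 10 leukocyte and endothelial markers, 5 were well above background on all 6 arrays, and PTPRC and CDH5 were on none. Their summed level ran from 5.51 to 7.80 in culture alone and from 6.01 to 7.89 in mixed culture. The part of other cell types in the differences was not tested.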

How the data were processed

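RNA of 6 samples was hybridised to 1-colour Agilent canine arrays. The authors deposited scanner output with an intensity for each spot, made by Feature Extraction 10.10.1.1 (background-corrected), and a deposited log2 table that equals the processed intensity on a log2 scale minus the array's 75th percentile. The study's text gives no normalization for the arrays. Here control and outlier-flagged spots were left out, spots of a probe were averaged, log2 intensity was taken relative to each array's 75th percentile (592 to 700 units), and probes well above background on all arrays of 1 group or more were tested with limma 3.58.1 in R 4.3.3 (lmFit and eBayes, Benjamini-Hochberg, threshold 0.05). Precision is limited by the 3 arrays per group. Tables and plots were made in Python 3.11.15 (numpy 2.4.6, pandas 2.3.3, matplotlib 3.10.9).

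The members and the gene lists were chosen with earlier results of these data known. Values on every array are given for called member probes, for probes with a difference of 2-fold or more, and for a set of central genes; in other lists called genes are named, and MYC, SOX9, NOTUM, LEF1 and NKD1 were named after their values were seen, as were members given by array for their spread. Probe names, coordinates and sequences come from the array's annotation on canFam3. Same-numbered arrays deviated from their group means together (correlations 0.349, 0.162 and 0.296 over 26529 probes). The replicate number was therefore used as a block in an alternative fit, and the main fit had no block. Differently numbered arrays correlated at -0.329 to 0.238, and alone replicate 2 correlated more with mixed replicate 3 (0.238) than with mixed replicate 2. The number is also the position on the slide. On simulated data with 26529 probes, of which 200 were changed, 72% of 2-fold and 95% of 4-fold changes were recovered with 7 false calls. These rates describe the simulated data and were not measured on the arrays, where 2978 probes were called. Alternatives were quantile normalization, normexp (offset 50), spike-in scaling, a filter for all 6 arrays or none, the deposited table, the methods' t-test, the replicate block, a 2-fold threshold and omission of each array.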

Additional observations from a re-analysis of the deposited data

How the results depend on the processing

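Of the 35 member probes, the count called was 3, and it was 0 with no filter, 0 with the methods' t-test after Benjamini-Hochberg adjustment, 6 with that test unadjusted, 1 at 2-fold or more and 0 to 9 when single arrays were left out. With no filter 12 of 43603 probes were called in all, and with the adjusted t-test 826. The unadjusted test called 17.1% of the member probes and 27.6% of all tested probes. At 2-fold or more 1.13% of all tested probes were called. The highest count, 9 of 38 tested member probes (23.7%), came without alone replicate 1, where 26.4% of all tested probes were called. Normexp and quantile normalization each gave 4 (11.4%), against 15% and 11.3% of all tested probes. With normexp the difference of the downstream WNT5A probe was -1.07, against -1.55 in the main fit. Spike-in scaling moved the median difference of the members to -0.16 and that of all probes to -0.17, so values under it are read relative to that shift. At 1 probe per gene, 2 member genes were called, 1 with the replicate block and 0 to 6 with single arrays left out. Under spike-in scaling the called genes were 0 for other secreted and surface proteins, 1 for intracellular genes, 0 for polarity and calcium genes and 3 for targets, and the replicate block left 1 polarity and calcium gene. Without single arrays these counts ran from 0 to 4, 0 to 7, 0 to 8 and 0 to 8, and those of the Ras and MAPK list from 0 to 8. Over the same omissions the share of all tested probes that were called ran from 0.0263% to 26.4%. With spike-in scaling that share was 3.58%, and with the replicate block 10.6%. The replicate block ended the calls of WNT7B, NXN, GSK3B, PRICKLE3 and CCND1, added those of GPC3, CSNK1E, CLDN1, ETS2, FGF9, SPRED1, IER3 and CLDN4, and changed no other call of a member or listed gene. No difference of a named probe reversed past a threshold. No slide block was fitted, because no slide carried both groups. The causes of these changes were not tested.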

Other observations

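A further 10 probes carry a member's name only in the array's descriptive text, and 7 of them were tested, a membership chosen after seeing the data. PORCN, the acyltransferase, was measured by 2 of them and differed by -0.03 and -0.06, and RYK, the alternative receptor, by 0.04. A second RNF43 probe read 2.35, 2.82 and 3.04 in culture alone and 2.48, 2.30 and 2.29 in mixed culture, where the groups overlapped at a difference of -0.38 (SE 0.18, adjusted p = 0.193 by limma). FZD8 differed by 0.23 (adjusted p = 0.250 by limma), SFRP4 by -0.21 (adjusted p = 0.717 by limma) and APC by 0.09 (adjusted p = 0.516 by limma). The probes for WNT2B, WNT3A and WNT16 were well above background on no array.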
